A study of Rattus norvegicus with 6 samples.

Results

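Growth arrest-specific 6 (Gas6), protein S (Pros1) and the 3 receptors of the TAM family, Axl, Mertk and Tyro3, were followed across the cells of control lungs and of lungs treated with bleomycin (BLM). These 5 genes were chosen as the known ligands and receptors of 1 pathway, out of 16383 genes in the table. Sprague Dawley rats of 8 to 10 weeks received 5 mg/kg BLM or saline into the trachea, and the lungs were taken on day 28, with 3 rats in each group. A perfused piece of whole lung was digested to single cells without a sort, cells were captured in microwells, and transcripts were counted by unique molecular identifiers (UMIs), so that each UMI stands for 1 captured transcript. BLM given once into the airway is a model of lung injury and scarring, and the lung at day 28 is late in that course. The 5 genes held 9966 UMIs of Gas6, 2034 of Pros1, 30379 of Axl, 5014 of Mertk and 102 of Tyro3 in 25547 cells.

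Gas6 and protein S are secreted proteins that need vitamin K for the carboxylation of their Gla domain, through which they bind phosphatidylserine on the surface of dying cells. At their other end they bind TAM receptors, which are receptor tyrosine kinases, and so form a bridge between a dying cell and the phagocyte that clears it. Mertk is known as a receptor of macrophages for the uptake of apoptotic cells, Axl is a receptor for Gas6, and both also dampen inflammatory signalling, while protein S is in addition a cofactor of the anticoagulant protein C.

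The promoter windows of Gas6, the ligand with the most UMIs, and of Axl, the receptor with the most, are shown to give the sequence around the starts of the transcripts that are counted here. Both windows come from RefSeq (GRCr8), hold 250 bases before and 50 bases after the annotated start, run 5′ to 3′ on the strand of the gene, and carry in capitals every GC box (GGGCGG on either strand), the motif bound by Sp1 family factors.
Gas6, chr16:82747426-82747725, plus strand: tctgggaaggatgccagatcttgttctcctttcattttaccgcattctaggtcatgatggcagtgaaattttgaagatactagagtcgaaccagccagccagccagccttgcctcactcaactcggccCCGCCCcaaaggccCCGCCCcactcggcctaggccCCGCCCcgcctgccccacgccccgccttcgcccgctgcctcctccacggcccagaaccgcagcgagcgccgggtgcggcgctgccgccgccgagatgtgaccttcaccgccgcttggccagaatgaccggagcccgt
Axl, chr1:90423960-90424259, minus strand: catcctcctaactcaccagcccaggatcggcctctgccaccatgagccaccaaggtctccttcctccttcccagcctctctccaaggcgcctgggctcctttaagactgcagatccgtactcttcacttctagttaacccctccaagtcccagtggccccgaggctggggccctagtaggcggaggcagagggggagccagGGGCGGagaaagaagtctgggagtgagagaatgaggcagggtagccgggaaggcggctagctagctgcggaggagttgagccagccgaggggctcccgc
The Gas6 window held 3 GC boxes and the Axl window 1, and 33.1% of 33469 rat windows of the same length held at least 1. The windows of Pros1, Mertk and Tyro3 held 3, 2 and 6. A match of letters is a description of the window and not a measured binding site.

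The rats gave 2568 to 7481 cells and 3860028 to 16598959 UMIs each, and the median cell of a rat held 1066 to 1840 UMIs. Cells were clustered without the members and without the genes of the pathway lists described below, and clusters were named from marker genes. Control replicate 2 was the shallowest library. Of the cell barcodes, 314 occurred in more than 1 library, on 629 cells. Scrublet marked 99 cells (0.388%) as doublets. Whether so few calls missed doublets was not tested, and all cells were kept. Levels are UMIs of a gene per 1000000 UMIs (CPM) summed over the cells of 1 class in 1 rat, and they were compared between cells or rats for the same gene, not between genes.

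Over all cells together, none of the 5 members differed between BLM-treated and control lungs. Gas6 stood at 158, 242 and 110 CPM in control replicates 1 to 3 and at 131, 181 and 279 CPM in BLM-treated replicates 1 to 3, a log2 fold change of 0.18 (SE 0.30, adjusted p = 0.732 by the quasi-likelihood test of edgeR, adjusted for all genes tested by Benjamini and Hochberg). Axl stood at 640, 544 and 597 CPM in control lungs and at 600, 435 and 468 CPM in BLM-treated lungs (log2 fold change -0.29, SE 0.18, adjusted p = 0.308). The groups overlapped for both genes. Pros1, Mertk and Tyro3 had log2 fold changes of 0.36 (SE 0.26, adjusted p = 0.395), 0.01 (SE 0.22, adjusted p = 0.986) and -0.46 (SE 0.50, adjusted p = 0.579). In the same comparison 17.4% of 13346 tested genes passed the threshold of 0.05. A level over all cells mixes the number of cells of each kind with the RNA in each cell, and fewer cells of a type and less RNA per cell cannot be told apart in it.

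The members were read in different cells (see the plot of levels by class). The ligand Gas6 had its highest mean level in alveolar type 2 cells, the surfactant-making cells of the alveolus, with 943 CPM (SD 303, n = 5 rats), followed by fibroblasts with 694 CPM (SD 331, n = 5), mesothelial cells with 555 CPM (SD 190, n = 6) and endothelial cells (ECs) with 328 CPM (SD 88.9, n = 6). These means pool the groups, and the order was not the same in each. In control rats alveolar type 2 cells held 1135 CPM (SD 202, n = 3) and fibroblasts 385 CPM (SD 237, n = 2), while in BLM-treated rats fibroblasts held 900 CPM (SD 179, n = 3) and alveolar type 2 cells 655 CPM (SD 96.6, n = 2). The other ligand, Pros1, led in contractile fibroblasts, a Cldn11- and Hhip-bearing population, with 313 CPM (SD 47.5, n = 6), followed by fibroblasts with 184 CPM (SD 20.3, n = 5). Axl led in alveolar macrophages with 1095 CPM (SD 158, n = 6), and Mertk in alveolar macrophages with 166 CPM (SD 38.5, n = 6) and Spp1 macrophages with 162 CPM (SD 53.5, n = 3). No neighbours in the order of any member passed the threshold after adjustment. The smallest p was that of Axl between alveolar macrophages and proliferating cells, whose level was 692 CPM (SD 50.5, n = 6), with p = 0.03125 by an exact sign-flip permutation test, the smallest 6 rats allow, and an adjusted p of 0.375. A pair at the smallest possible p thus did not pass, so this test cannot say whether single neighbours differ.

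**Figure D1:**
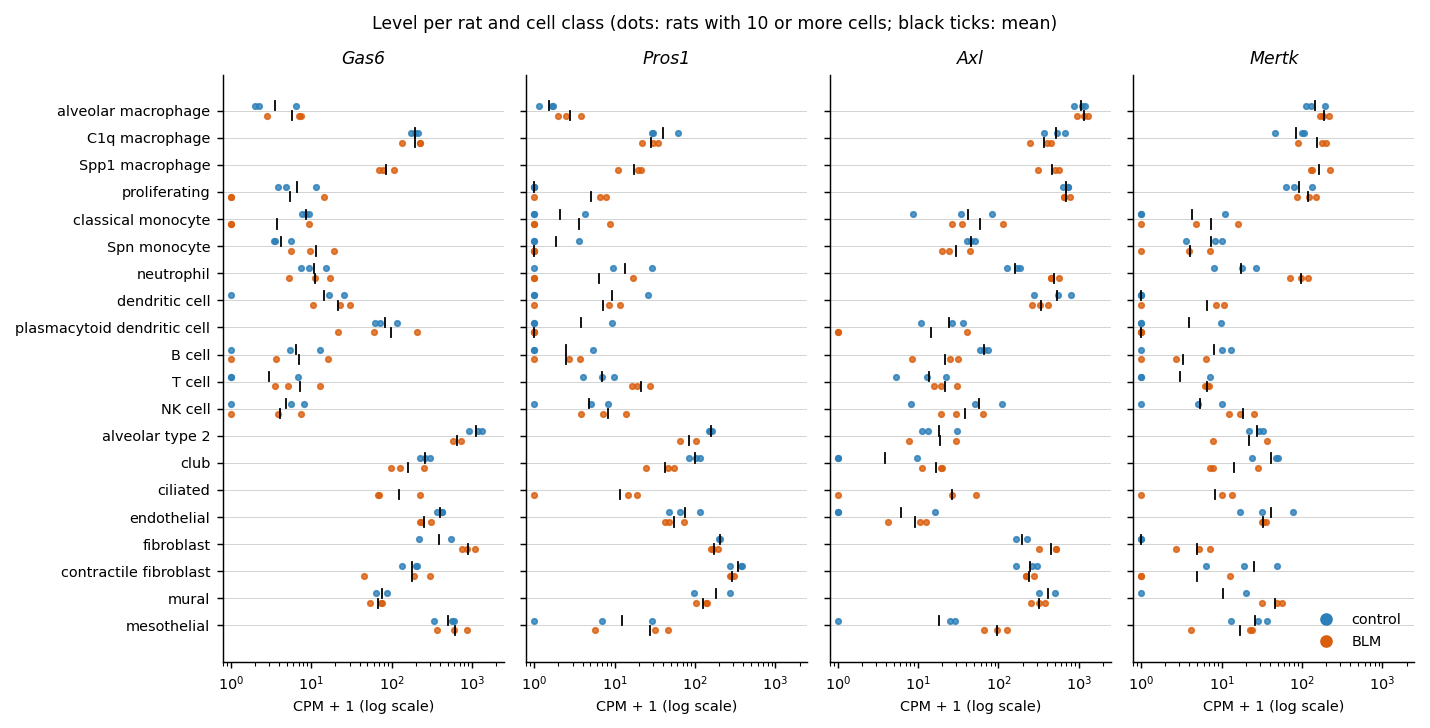
Levels of Gas6, Pros1, Axl and Mertk (columns) by cell class (rows), as CPM + 1 on a log axis, with 1 dot for each rat with at least 10 cells of the class (control blue, BLM-treated orange) and a tick for the mean of a group. Gas6 is highest in alveolar type 2 cells in control rats (918 to 1316 CPM) and in fibroblasts in BLM-treated rats (742 to 1094 CPM), and Axl in alveolar macrophages, where the points of both groups overlap at 879 to 1301 CPM in alveolar macrophages.

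Shares of cells with a UMI gave the same picture of where the members lie. With each cell thinned to 500 UMIs, Axl was found in 35.0% to 47.4% of alveolar macrophages of control rats and in 34.9% to 49.4% of those of BLM-treated rats. In B cells, taken as cells that should lack it, the share of cells with an Axl UMI was 0% to 1.90%. Gas6 was found in 34.1% to 49.8% of control alveolar type 2 cells and in 0% to 0.498% of B cells. The cells behind these shares had medians of 1524 to 5083 UMIs in alveolar macrophages, 2434 to 3778 in alveolar type 2 cells and 652 to 738 in B cells before thinning.

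The ligand Gas6 came mostly from alveolar type 2 cells in control lungs, and in BLM-treated lungs from fibroblasts, ECs and mesothelial cells, in an order that varied between rats (see the plot of shares by class). Alveolar type 2 cells gave 87.2%, 81.0% and 75.5% of all Gas6 UMIs of control replicates 1 to 3, a mean of 81.2% (SD 5.86), and 2.73% (SD 1.53) in BLM-treated lungs. Fibroblasts gave 1.14% (SD 1.12) of the Gas6 UMIs of control lungs and 48.2%, 59.0% and 29.0% of those of BLM-treated replicates 1 to 3. Mesothelial cells gave 4.29% (SD 0.604) in control lungs and 12.3%, 6.74% and 44.6% in BLM-treated replicates 1 to 3, so that they were the leading source in BLM-treated replicate 3, where they were 10.8% of the cells. ECs went from 3.04% (SD 2.20) to 17.4%, 7.11% and 9.75%, above mesothelial cells in BLM-treated replicates 1 and 2, and Spp1 macrophages from 0% to 5.77% (SD 3.79). The groups did not overlap for any of these 5 classes, and each gave p = 0.1 in the two-sided exact permutation test, the smallest p that 3 rats against 3 allow, with an adjusted p of 0.1. Cell numbers moved with these shares: alveolar type 2 cells were 6.18% to 8.33% of the cells of control rats and 0.164% to 1.24% of those of BLM-treated rats, and fibroblasts were 0.0890% to 0.587% and 4.32% to 8.85%.

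**Figure D2:**
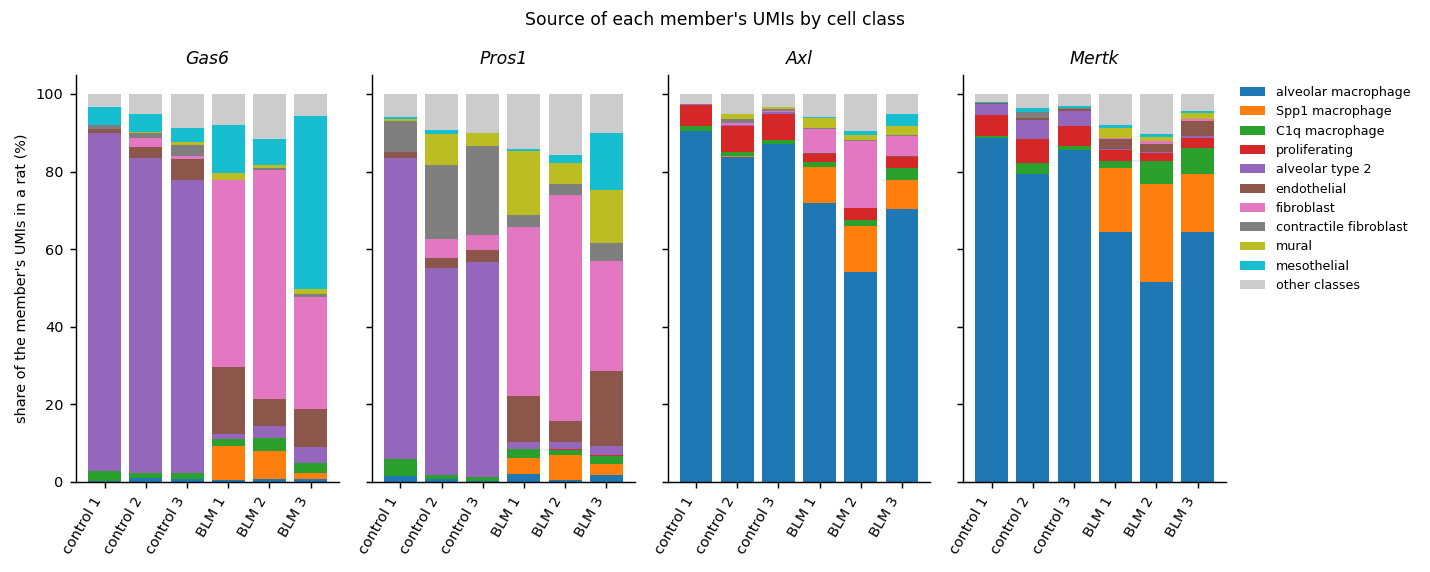
Share of all UMIs of Gas6, Pros1, Axl and Mertk that came from each cell class, in percent, as 1 stacked bar for each of the 6 rats. The alveolar type 2 share of Gas6 is 75.5% to 87.2% in control rats and averages 2.73% in BLM-treated rats, where fibroblasts give 29.0% to 59.0%, mesothelial cells 6.74% to 44.6% and ECs 7.11% to 17.4%.

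Within alveolar type 2 cells the level of Gas6 was 1171, 1316 and 918 CPM in control replicates 1 to 3 and 586 and 723 CPM in BLM-treated replicates 2 and 3. BLM-treated replicate 1 held 6 such cells, below the minimum of 10, and its 553 CPM did not enter the test. Both tested BLM-treated rats lay below all 3 control rats, but the difference missed the threshold (log2 fold change -0.80, SE 0.21, adjusted p = 0.0920), in a class where 1.09% of 6416 tested genes passed. In the test without the filter on low counts it passed (-0.93, adjusted p = 0.00196). The share of alveolar type 2 cells with a Gas6 UMI after thinning was 18.2% and 27.7% in these BLM-treated rats (p = 0.2 by the exact permutation test, the smallest p for 3 against 2).

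Within fibroblasts Gas6 stood higher in every BLM-treated rat. The level was 553 and 218 CPM in control replicates 2 and 3 and 864, 742 and 1094 CPM in BLM-treated replicates 1 to 3, and control replicate 1 held 3 fibroblasts and was left out of the test. The log2 fold change was 1.55 (SE 0.37) and missed the threshold (adjusted p = 0.0619), in a class where 1.53% of 7462 tested genes passed. It passed with DESeq2 (1.46, adjusted p = 0.0168), without the filter (1.70, adjusted p = 0.000185) and without BLM-treated replicate 3 (1.27, adjusted p = 0.035). With each rat left out the value spanned 1.09, without control replicate 3, to 2.31, without control replicate 2, and neither of these passed. In an interaction chosen after the data were seen, in which 1.02% of 6642 genes passed, the change of Gas6 was higher in fibroblasts than in alveolar type 2 cells by 2.29 (SE 0.51, adjusted p = 0.00221). Only control replicates 2 and 3 and BLM-treated replicates 2 and 3 held at least 10 cells of both classes. Without control replicate 3, which left 1 such control rat, the value was 2.17 and is given without a call. Over the 18 classes with a test, 35 of the 90 pairs of member and class passed the filter on low counts and 3 passed the threshold, all higher in BLM-treated lungs, beside 4.20% of all genes tested in those classes.

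The fibroblasts of the groups were of different kinds, and Gas6 differed between these kinds (see the plot of stromal kinds). Matrix fibroblasts, the Pi16-, Scara5- and C7-bearing cells, numbered 7 in control lungs and 794 in BLM-treated lungs, and Gas6 stood at 1150, 806 and 1239 CPM in those of BLM-treated replicates 1 to 3. Alveolar fibroblasts were named from a list with Inmt, and Col13a1 was among their top genes. In the larger of their subclusters 4 of 8 list markers were up, with a mean log2 fold of 1.21. Alveolar fibroblasts held 423 and 216 CPM in control replicates 2 and 3 and 63.3, 173 and 792 CPM in BLM-treated replicates 1 to 3. Gas6 in alveolar fibroblasts therefore overlapped between the groups. Each stromal kind was tested against the mean of the other kinds with the rat as a block, and Gas6 was higher in matrix fibroblasts (log2 fold change 2.56, SE 0.27, adjusted p = 1.21e-08) and in mesothelial cells (1.20, SE 0.23, adjusted p = 8.94e-05), and lower in mural cells, the pericytes and smooth muscle of vessels (-2.88, SE 0.33, adjusted p = 3.37e-08). In contractile fibroblasts the value was -0.85 (SE 0.30, adjusted p = 0.0549), which passed with DESeq2 (-0.90, adjusted p = 0.0493), without the filter (-0.91, adjusted p = 0.00439) and without BLM-treated replicate 3 (-0.93, adjusted p = 0.0249). Of the 15 pairs of member and kind that passed the filter, 9 passed the threshold, 6 of them higher, beside 24.3% of all genes over these 5 comparisons.

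**Figure D3:**
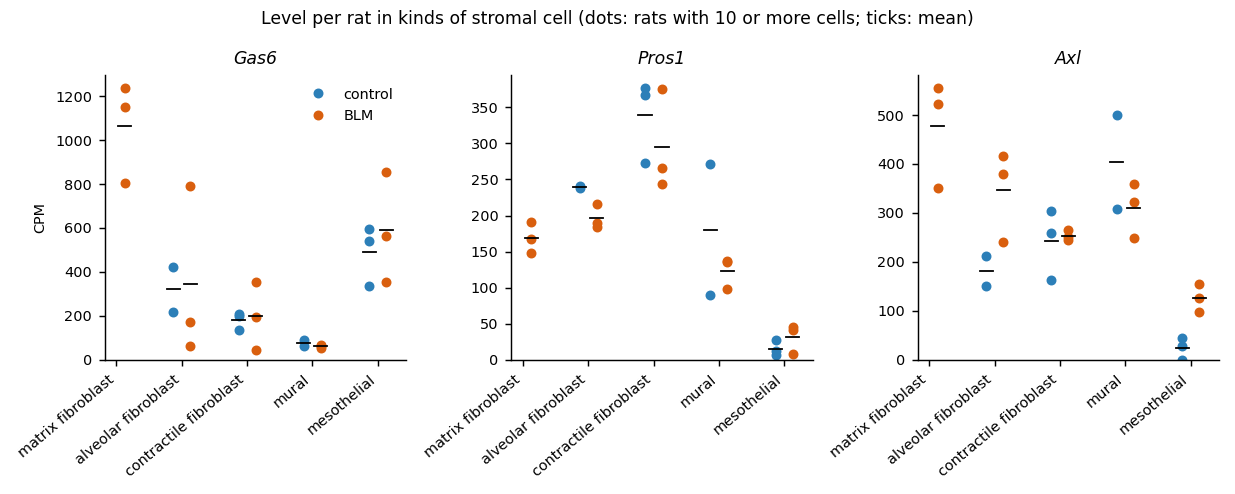
Levels of Gas6, Pros1 and Axl in 5 kinds of stromal cells, in CPM, with 1 dot for each rat with at least 10 cells of the kind (control blue, BLM-treated orange) and a tick for the mean of a group. Gas6 is at 806 to 1239 CPM in the matrix fibroblasts of BLM-treated rats and under 90 CPM in mural cells.

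The alveolar fibroblasts of BLM-treated rats fell into subclusters that differed in Gas6. The subcluster led by Coch and Wif1 held 63.7, 98.0 and 351 CPM of Gas6 in BLM-treated replicates 1 to 3, and that led by Aoc1 and Aldh1a1 held 638 and 1150 CPM in BLM-treated replicates 2 and 3. The subclusters were singled out after their values were seen and are described without a test. The mix of these subclusters also differed: in BLM-treated replicates 1 to 3 the first held 48, 74 and 26 cells and the second 1, 17 and 35.

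In ECs Gas6 was 417, 427 and 363 CPM in control rats and 304, 230 and 226 CPM in BLM-treated rats. All BLM-treated rats lay below all control rats, with a log2 fold change of -0.52 (SE 0.22) that missed the threshold (adjusted p = 0.166), in a class where 8.48% of 5846 genes passed. The groups lay in different EC subclusters. Of the control ECs 140 of 207 lay in a subcluster with 1 BLM-treated cell, led by Gpx2 and Cyp1a1, where Gas6 stood at 479, 269 and 413 CPM in control replicates 1 to 3. Of the BLM-treated ECs 677 and 585 lay in 2 capillary-like subclusters, led by Ntrk2 and Gpihbp1, that held 1 and 13 control cells, and Gas6 stood at 281, 230 and 240 CPM in the larger and at 324, 179 and 208 CPM in the smaller. Group and subcluster therefore cannot be told apart in most ECs. Among EC kinds, which leave out 2 unnamed subclusters of 678 and 141 cells, Gas6 had a log2 fold change of 0.68 (SE 0.25, adjusted p = 0.0597) in arterial cells and -0.73 (SE 0.32, adjusted p = 0.148) in venous cells against the mean of the other kinds. None of the 6 pairs of member and EC kind that passed the filter passed the threshold, beside 16.7% of all genes, while 2 had an unadjusted p under 0.05. With BLM-treated rats only, both passed, arterial at 0.83 (adjusted p = 0.0151) and venous at -0.93 (adjusted p = 0.0461).

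As with Gas6, the alveolar type 2 share of Pros1 was lower and the fibroblast share higher in BLM-treated lungs. Alveolar type 2 cells gave 62.2% (SD 13.5) of the Pros1 UMIs of control lungs and 2.04% (SD 0.249) of those of BLM-treated lungs, fibroblasts 2.88% (SD 2.56) and 28.2% to 58.3%, and contractile fibroblasts 16.7% (SD 7.77) and 3.62% (SD 0.910). The groups did not overlap in these 3 classes (p = 0.1 by the exact permutation test, adjusted p = 0.15). The mesothelial share of Pros1 overlapped, with 0.532%, 1.23% and 0% in control and 0.472%, 2.16% and 14.7% in BLM-treated rats (p = 0.3 by the same exact test, adjusted p = 0.30), and mural cells gave 11.8% (SD 5.89) of Pros1 and 0.701% to 1.70% of Gas6 in BLM-treated lungs. Within contractile fibroblasts the level was 273, 377 and 368 CPM in control rats and 307, 273 and 282 CPM in BLM-treated rats, so the groups overlapped. Within alveolar type 2 cells it was 164, 151 and 149 CPM in control rats and 102 and 63.8 CPM in BLM-treated replicates 2 and 3 (log2 fold change -0.90, SE 0.29, adjusted p = 0.202). In club cells, the secretory cells of the airway, it was 82.9, 113 and 103 CPM in control rats and 23.6, 53.3 and 45.4 CPM in BLM-treated rats (-1.34, SE 0.41, adjusted p = 0.0898), without overlap, in a class where 4.55% of 3756 genes passed. This class also held 12128 UMIs of alveolar type 2 markers in 105 control cells and 22160 in 278 BLM-treated cells. The part of alveolar type 2 transcripts in its Pros1 was not tested.

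Among stromal kinds Pros1 was higher in contractile fibroblasts (log2 fold change 1.36, SE 0.21, adjusted p = 2.38e-05), alveolar fibroblasts (0.74, SE 0.21, adjusted p = 0.0121) and matrix fibroblasts (0.66, SE 0.21, adjusted p = 0.0223), and lower in mesothelial cells (-2.53, SE 0.23, adjusted p = 2.45e-10). Mesothelial cells thus carried Gas6 above and Pros1 below the mean of the other kinds. The call in matrix fibroblasts was lost with DESeq2 (0.63, adjusted p = 0.0722), with the pathway genes kept in the clustering (0.58, adjusted p = 0.0719) and without BLM-treated replicate 1 (0.61, adjusted p = 0.122) or 2 (0.61, adjusted p = 0.218). The call in alveolar fibroblasts was lost without BLM-treated replicate 1 (0.67, adjusted p = 0.0675) or 2 (0.79, adjusted p = 0.058).

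The receptor Axl was read mainly in alveolar macrophages, with levels that overlapped between the groups. Its level there was 1079, 1197 and 879 CPM in control replicates 1 to 3 and 1301, 953 and 1162 CPM in BLM-treated replicates 1 to 3 (log2 fold change 0.10, SE 0.15, adjusted p = 0.750). Different clusters held most of these cells: of the control alveolar macrophages 2021, 411 and 1341 lay in clusters 1, 2 and 5, and of the BLM-treated ones 255, 1760 and 268. Axl spanned 813 to 1441 CPM over these 3 clusters in the 6 rats. The class gave 87.1% (SD 3.24) of the Axl UMIs of control lungs and 65.5% (SD 9.85) of those of BLM-treated lungs, while Spp1 macrophages went from 0.0457% (SD 0.0173) to 9.48% (SD 2.13) and fibroblasts from 0.198% (SD 0.204) to 9.46% (SD 6.60). Each of these shares gave p = 0.1 by the exact permutation test (adjusted p = 0.1).

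Macrophages fell into alveolar, C1q and Spp1 macrophages, and the members separated these kinds (see the plot of macrophage kinds). C1q macrophages are tissue macrophages with complement and Cd163 transcripts, and Spp1 macrophages carry Spp1, Apoe and Trem2 and were nearly confined to BLM-treated lungs in these libraries, with 9 cells in control and 963 in BLM-treated rats. Axl stood at 537, 371 and 664 CPM in the C1q macrophages of control rats and at 402, 245 and 451 CPM in those of BLM-treated rats, each below the alveolar macrophages of the same rat. With the rat as a block Axl was lower in C1q than in alveolar macrophages (log2 fold change -1.54, SE 0.16, adjusted p = 1.48e-08) and lower in Spp1 than in alveolar macrophages (-1.20, SE 0.19, adjusted p = 3.79e-05). Between Spp1 and C1q macrophages the difference was 0.34 (SE 0.20, adjusted p = 0.198), and it passed with BLM-treated rats only (0.44, adjusted p = 0.0269).

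**Figure D4:**
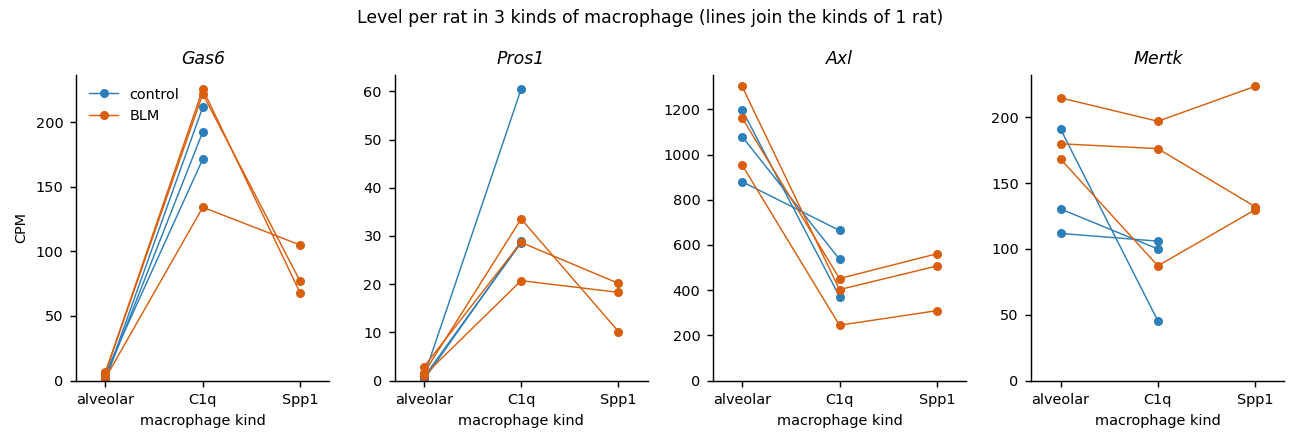
Levels of Gas6, Pros1, Axl and Mertk in alveolar, C1q and Spp1 macrophages, in CPM, with 1 dot for each rat with at least 10 cells of the kind (control blue, BLM-treated orange) and lines that join the kinds of 1 rat. Axl is highest in alveolar macrophages (879 to 1301 CPM), while Gas6 is at 0.985 to 6.45 CPM there and at 134 to 226 CPM in C1q macrophages.

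The ligands ran the other way in macrophages. Gas6 stood at 212, 171 and 193 CPM in the C1q macrophages of control rats and at 134, 222 and 226 CPM in those of BLM-treated rats, against 0.985 to 6.45 CPM in alveolar macrophages. It was higher in C1q (log2 fold change 5.68, SE 0.30, adjusted p = 9.73e-14) and in Spp1 macrophages (4.44, SE 0.32, adjusted p = 1.23e-10) than in alveolar macrophages, and lower in Spp1 than in C1q macrophages (-1.24, SE 0.28, adjusted p = 0.00131), with 105, 76.8 and 67.8 CPM in the Spp1 macrophages of BLM-treated rats. Pros1 was likewise higher in C1q (4.60, SE 0.52, adjusted p = 6.62e-08) and in Spp1 (3.82, SE 0.51, adjusted p = 2.57e-06) than in alveolar macrophages. In all, 8 of the 12 pairs of member and contrast that passed the filter passed the threshold, 4 higher and 4 lower, beside 35.0% of all genes over the 3 contrasts.

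Transcripts of other cells were measured beside these levels. C1q macrophages held 75.0 to 167 Gas6 UMIs for every 100 UMIs of 16 fibroblast markers, against 0.529 to 2.26 in fibroblasts, and 22.2 to 98.4 for every 100 UMIs of 10 alveolar type 2 markers, against 0.356 to 0.661 in alveolar type 2 cells. Spp1 macrophages held 35.9 to 69.9 Gas6 UMIs for every 100 UMIs of fibroblast markers. Other classes also had high ratios to the fibroblast markers, with 70.3 to 900 in ECs and 16.7 to 200 in plasmacytoid dendritic cells. The ratio of 900 rested on 27 Gas6 UMIs and 3 marker UMIs, and that of 200 on 14 and 7. In BLM-treated ECs, with 635 Gas6 UMIs and 617 marker UMIs, the ratio was 70.3 to 144. Alveolar macrophages held 1.17 to 5.63. A ratio above that of fibroblasts is therefore not particular to C1q and Spp1 macrophages. The part of transcripts of other cells in their Gas6 was not tested.

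Mertk, the phagocytic receptor, stood at 191, 130 and 112 CPM in the alveolar macrophages of control rats and at 168, 180 and 215 CPM in those of BLM-treated rats (log2 fold change 0.35, adjusted p = 0.277). In C1q macrophages it was 45.4, 100 and 106 CPM in control rats and 87.2, 176 and 197 CPM in BLM-treated rats (1.03, SE 0.39, adjusted p = 0.255), where 1.35% of 2808 genes passed. The groups overlapped in both kinds. At the lower clustering resolution, where Spp1 macrophages joined the C1q class, the difference in the merged class passed (1.30, adjusted p = 0.0127). Mertk was lower in C1q than in alveolar macrophages (-0.56, SE 0.19, adjusted p = 0.0188), a call lost with BLM-treated rats only (-0.26, adjusted p = 0.238), at the lower clustering resolution (-0.65, adjusted p = 0.0862) and without control replicate 1 (-0.34, adjusted p = 0.102) or BLM-treated replicate 1 (-0.49, adjusted p = 0.0802). Spp1 macrophages held 130, 132 and 224 CPM in BLM-treated rats, and the difference from alveolar macrophages was -0.29 (SE 0.20, adjusted p = 0.332). They gave 18.8% (SD 5.63) of the Mertk UMIs of BLM-treated lungs and alveolar macrophages 60.2% (SD 7.47), where alveolar macrophages had given 84.5% (SD 4.71) in control lungs (p = 0.1, exact permutation test, adjusted p = 0.1).

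Whether BLM changed a member differently in alveolar than in C1q macrophages was tested as an interaction. None of the 4 members that passed the filter passed the threshold, beside 2.69% of 9043 genes, while 3 had an unadjusted p under 0.05. The differences of the log2 fold changes, alveolar minus C1q, were 0.56 (SE 0.26, adjusted p = 0.355) for Axl, -0.79 (SE 0.38, adjusted p = 0.386) for Mertk, 1.25 (SE 0.53, adjusted p = 0.277) for Gas6 and 2.22 (SE 1.15, adjusted p = 0.454) for Pros1. At the lower clustering resolution, where Spp1 macrophages joined the C1q class, Gas6 (1.74, adjusted p = 0.0122) and Mertk (-1.13, adjusted p = 0.0116) passed. Gas6 also passed without control replicate 2 (1.91, adjusted p = 0.0487).

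Outside macrophages Axl was 226 and 164 CPM in the fibroblasts of control replicates 2 and 3 and 513, 516 and 321 CPM in those of BLM-treated rats (log2 fold change 1.51, SE 0.39, adjusted p = 0.0828). The groups did not overlap, and the difference passed without the filter (1.67, adjusted p = 0.00151) and without BLM-treated replicate 3 (1.58, adjusted p = 0.00873). Axl was higher in matrix fibroblasts (1.13, SE 0.24, adjusted p = 0.00054) and lower in mesothelial cells (-1.71, SE 0.24, adjusted p = 8.37e-07) than in the mean of the other stromal kinds. Matrix fibroblasts numbered 7 in control and 794 in BLM-treated lungs, so group and kind cannot be told apart in the fibroblast class. In alveolar fibroblasts Axl was 211 and 152 CPM in control replicates 2 and 3 and 380, 417 and 241 CPM in BLM-treated rats. Their Coch and Wif1 subcluster (382, 457 and 398 CPM in BLM-treated rats) held 11 control and 148 BLM-treated cells. The Aoc1 and Aldh1a1 subcluster (168 and 114 CPM in BLM-treated replicates 2 and 3) held 27 and 53. Dendritic cells held 272, 790 and 553 CPM of Axl in control rats and 260, 328 and 410 CPM in BLM-treated rats (-0.77, SE 0.33, adjusted p = 0.740). In BLM-treated fibroblasts there were 128 to 166 Axl UMIs for every 100 UMIs of 13 alveolar macrophage markers. Alveolar macrophages held 13.4 to 18.1. The ratio of 450 in control fibroblasts rested on 18 Axl UMIs and 4 marker UMIs.

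In the neutrophil class, the S100a8- and Csf3r-bearing cells, both Axl and Mertk were higher in BLM-treated lungs. Axl stood at 169, 128 and 184 CPM in control rats and at 571, 451 and 448 CPM in BLM-treated rats (log2 fold change 1.46, SE 0.24, adjusted p = 0.00216). Mertk stood at 16.9, 7.10 and 25.8 CPM in control rats and at 118, 97.1 and 70.5 CPM in BLM-treated rats (2.20, SE 0.44, adjusted p = 0.00629). With each rat left out in turn the log2 fold changes were 1.30 to 1.54 for Axl and 1.88 to 2.81 for Mertk, all past the threshold. Neither gene's groups overlapped, and in this class 10.1% of 3288 tested genes were higher. After thinning to 500 UMIs, 1.60% to 3.18% of control and 5.80% to 6.60% of BLM-treated cells held an Axl UMI (p = 0.1 by the exact permutation test, the smallest possible), beside 0% to 1.90% of B cells. The cells of the class had medians of 673 to 742 UMIs before thinning.

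Macrophage markers moved with Axl and Mertk in this class (see the plot of Axl against macrophage markers). The summed level of the 13 alveolar macrophage markers was 2762 to 3345 CPM in control and 3993 to 4395 CPM in BLM-treated rats, with Marco and F7 at 0 in all 6 rats and at most 4 markers at 0 in a rat. That of the 11 Spp1 macrophage markers was 1421 to 3574 CPM and 6746 to 11540 CPM. Of those markers Spp1 and Mmp12 were at 0 in all 3 control rats, and Mmp12 was the 1 marker at 0 in BLM-treated replicates 1 and 3. The 11 neutrophil markers summed to 41480 to 52050 CPM in control and 13220 to 24320 CPM in BLM-treated rats. Per 100 UMIs of alveolar macrophage markers, the class held 4.49 to 6.12 Axl UMIs in control and 10.2 to 13.2 in BLM-treated rats, and alveolar macrophages 13.4 to 18.1. In the cells of the class without any UMI of these markers, a choice made after the data were seen, Mertk had 0 UMIs in every rat and Axl 0, 0 and 1 UMI in 45, 71 and 62 control cells and 1, 3 and 1 UMI in 43, 83 and 56 BLM-treated cells. The part of macrophage transcripts in the higher Axl and Mertk of the class was not tested. The change of Axl was higher in this class than in alveolar macrophages by 1.31 on the log2 scale (SE 0.28, adjusted p = 0.00079) in an interaction chosen after the data were seen, in which 7.15% of 8299 genes passed.

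**Figure D5:**
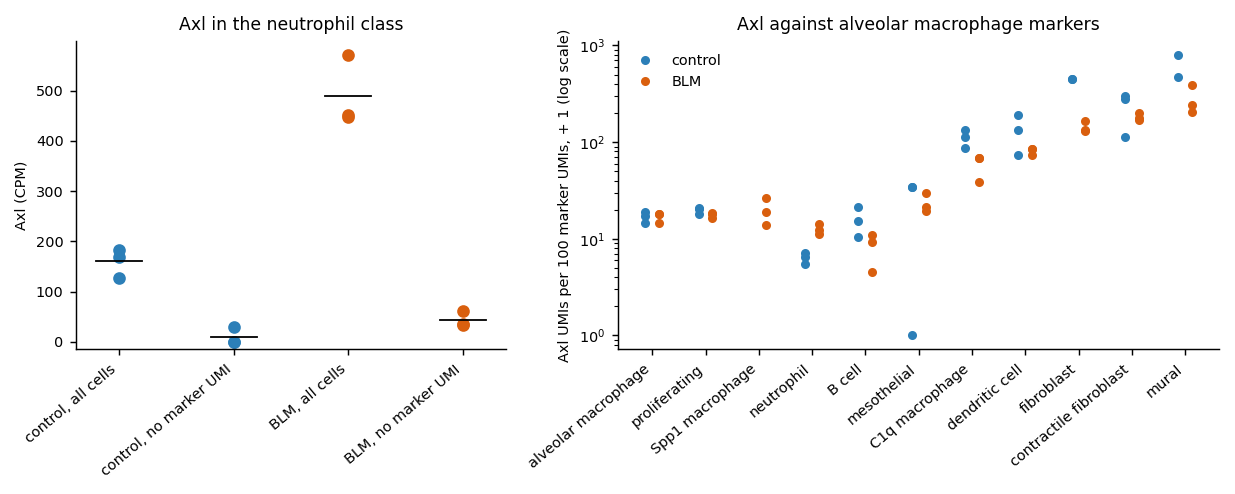
Left, Axl in CPM in all cells of the neutrophil class and in those without a UMI of an alveolar macrophage marker, and right, Axl UMIs per 100 UMIs of those markers by class, as the value + 1 on a log axis, with 1 dot for each rat (control blue, BLM-treated orange) and, left, lines for the means. In all cells of the neutrophil class the rats hold 128 to 184 CPM (control) and 448 to 571 CPM (BLM-treated), and in cells without such a UMI at most 62.4 CPM.

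In mesothelial cells, the lining of the lung surface, Axl was 0, 27.8 and 23.8 CPM in control rats and 64.9, 127 and 93.9 CPM in BLM-treated rats. The groups did not overlap, and the log2 fold change was 2.89 (SE 0.66, adjusted p = 0.0314), where 2.83% of 3530 genes passed. The control value rests on 4 Axl UMIs in 108 cells, so the size of this fold depends on the fit. A mesothelial subcluster of the stromal cells held 1 control and 179 BLM-treated cells. Axl stood there at 210 and 129 CPM in BLM-treated replicates 2 and 3. In the mesothelial subcluster shared by the groups it was 0, 27.8 and 23.8 CPM in control rats. In the BLM-treated rats of that subcluster it was 68.5, 106 and 77.2 CPM. The part of this mix of subclusters in the fold was not tested. The call was lost when cells of leukocyte-bearing subclusters, removed by a choice made after the data were seen, were kept (1.51, adjusted p = 0.138), and without any of control replicates 1, 2 or 3 (1.92, 3.50 and 3.47, adjusted p = 0.190, 0.0697 and 0.0879) or BLM-treated replicates 2 or 3 (2.63 and 2.94, adjusted p = 0.0656 and 0.0664). The summed level of alveolar macrophage markers in these cells was 71.3 to 126 CPM in control and 329 to 633 CPM in BLM-treated rats, with up to 10 of 13 at 0 in both groups, Marco, F7 and Atp6v0d2 in all 6 rats, and BLM-treated cells held 18.2 to 28.5 Axl UMIs for every 100 UMIs of these markers. The part of such transcripts in the higher Axl was not tested.

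In B cells Axl went down from 72.2, 65.7 and 57.2 CPM in control rats to 24.1, 30.7 and 7.34 CPM in BLM-treated rats, without overlap, and this missed the threshold (log2 fold change -1.37, SE 0.39, adjusted p = 0.141), where 0.49% of 4082 genes passed. The alveolar macrophage markers in B cells summed to 357 to 699 CPM and 205 to 312 CPM. Alveolar macrophages themselves were 30.5% to 37.9% of the cells of control rats and 14.6% to 16.1% of those of BLM-treated rats.

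Tyro3, the TAM receptor best known from the nervous system, was near the limit of detection. It had 102 UMIs in 95 of 25547 cells (0.372%), and no class reached a mean of 6 CPM over rats, with club cells at 5.94 CPM (SD 8.79, n = 6) and alveolar type 2 cells at 5.08 CPM (SD 3.31, n = 5). The most UMIs in 1 class of 1 rat were 15, in the mesothelial cells of BLM-treated replicate 3. Alveolar type 2 cells gave 29.2%, 33.3% and 38.1% of the Tyro3 UMIs of control replicates 1 to 3, or 17 UMIs in all. Alveolar macrophages gave more Tyro3 UMIs than alveolar type 2 cells in each control rat, although their mean level was only 1.29 CPM (SD 0.87, n = 6). Mesothelial cells gave 15 of the 25 Tyro3 UMIs of BLM-treated replicate 3.

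The genes with the pattern most like a member were sought over 43 points, each the mean of a class in a group, among 4936 genes with at least 2000 UMIs, by the Pearson correlation of log2(CPM + 10). These points share libraries and rats, and the correlations are a description. Gas6 was closest to Bmp1 (r = 0.860), which encodes a procollagen C-proteinase, then Tceal9 (0.823), P4ha2 (0.819), a collagen prolyl hydroxylase subunit, Bmp4 (0.815) and Amotl2 (0.810). Pros1 was closest to Timp3 (0.891), an inhibitor of metalloproteinases, RGD1564664 (0.885), Kank2 (0.881), Ltbp1 (0.864), a binding protein of latent TGF-beta, and Nfia (0.862). Axl was closest to Bend6 (0.888), Aspa (0.814), Igf1 (0.792), Cd302 (0.792) and Ppt1 (0.786), a lysosomal thioesterase. Mertk was closest to Vsig4 (0.824) and Msr1 (0.822), a complement receptor and a scavenger receptor of macrophages, then Atp6v1a (0.814), Pld3 (0.812) and Mrgprx3 (0.805). For Tyro3 the highest value was 0.600, with Atp6v1c2.

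Other genes of the pathway were taken as 7 lists, of which 66 genes were in the table. In alveolar macrophages 48 of these were tested, and 5 were higher and 6 lower in BLM-treated lungs, beside 11.2% of all 9267 genes called there. In the list of other phosphatidylserine bridges and receptors, 1 of 8 tested genes was higher and 2 lower, with a median log2 fold change of -0.15 against -0.01 over all genes. Mfge8, a secreted bridge like Gas6, rose (log2 fold change 3.19, SE 0.31, adjusted p = 0.000196), and Lrp1, a receptor for engulfment (-1.17, SE 0.14, adjusted p = 0.000657), and Cd300lf (-0.50, SE 0.12, adjusted p = 0.0277) fell. Of the engulfment machinery 1 of 7 was lower, Abca1, a lipid exporter (-2.84, SE 0.26, adjusted p = 0.00014), and 0 of 7 were higher (list median 0.01). Nr1h3, which encodes the nuclear receptor LXR alpha and induces Mertk in macrophages, fell (-0.58, SE 0.12, adjusted p = 0.0136). Adam17, a protease that sheds Axl and Mertk from the cell surface, fell in alveolar macrophages (-0.56, SE 0.11, adjusted p = 0.00915).

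Of the signalling genes below the receptors, 2 of 9 tested in alveolar macrophages were higher, Src (2.93, SE 0.56, adjusted p = 0.00805) and Pik3r1 (1.18, SE 0.14, adjusted p = 0.000708), both read downstream of many receptors, and 1 was lower, Plcg2 (-0.72, SE 0.16, adjusted p = 0.0162). Thbd, or thrombomodulin, which works with protein S in the protein C pathway, was 1 of 4 tested partners in coagulation and rose in alveolar (2.04, SE 0.22, adjusted p = 0.000348) and C1q macrophages (2.11, SE 0.50, adjusted p = 0.04). None of the 7 genes of phosphatidylserine exposure passed in alveolar macrophages (median 0.12).

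Genes of the lists were also compared between macrophage kinds. Of 51 list genes tested, 13 were higher and 15 lower in C1q than in alveolar macrophages, beside 46.2% of all genes. Higher were the phosphatidylserine receptors Stab1 (log2 fold change 6.50, SE 0.47, adjusted p = 2.4e-11) and Havcr2 (5.28, SE 0.30, adjusted p = 3e-13), and 5 of 10 genes of that list were higher and 3 lower (median 1.08 against -0.07 over all genes). The secreted bridge Edil3 was lower (-3.49, SE 0.30, adjusted p = 6.45e-10). Among transcription factors Maf (2.67, SE 0.16, adjusted p = 1.21e-12) was higher, and Pparg (-4.92, SE 0.26, adjusted p = 8.37e-14), a factor of alveolar macrophages, and Nr1h3 (-3.28, SE 0.29, adjusted p = 1.29e-09) lower. The sheddases Adam17 (-1.19, SE 0.15, adjusted p = 3.77e-07) and Adam10 (-1.16, SE 0.23, adjusted p = 0.000172) were also lower in C1q macrophages.

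The lists were compared between stromal kinds as well. In matrix fibroblasts, where Gas6 was higher, 4 of 6 tested genes of ligand carboxylation and receptor shedding were higher and 0 lower (median 0.76 against 0.03 over all genes, of which 20.6% passed). These were Ggcx, the vitamin K-dependent carboxylase (log2 fold change 0.78, SE 0.19, adjusted p = 0.00231), Vkorc1, which recycles vitamin K (0.82, SE 0.19, adjusted p = 0.00138), Calu, an inhibitor of carboxylation (0.75, SE 0.19, adjusted p = 0.00394), and Adam17 (1.02, SE 0.25, adjusted p = 0.00309). In mural cells, where Gas6 was lower, Ggcx (-1.22, SE 0.21, adjusted p = 2.23e-05) and Vkorc1 (-1.19, SE 0.19, adjusted p = 6.32e-06) were lower. Furin of the same list was higher there (1.17, SE 0.21, adjusted p = 4.56e-05). The bridge Mfge8 was also higher in mural cells (2.77, SE 0.21, adjusted p = 6.3e-12), beside 36.0% of all genes called there. Between BLM-treated and control fibroblasts Mfge8 was the 1 gene of 41 tested from the lists that passed, beside 1.53% of all genes. It fell (-1.50, SE 0.33, adjusted p = 0.0446). Mfge8 was also lower in matrix fibroblasts than in the mean of the other stromal kinds (-0.91, SE 0.31, adjusted p = 0.034). These cells numbered 7 in control and 794 in BLM-treated lungs, so group and kind cannot be told apart in this fall. In alveolar type 2 cells Mfge8 rose (1.43, SE 0.26, adjusted p = 0.0105), the 1 gene of 31 tested, beside 1.09% of all genes.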

How the data were processed

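The deposited values are counts made by the authors: whole UMI counts per gene and cell of 3 control and 3 BLM-treated rats, not normalized. The submitters' processing notes name the genome build mm9, which is a mouse build, while the table holds rat gene names such as RGD1564664. The build behind the counts was therefore not settled. Which aligner and counter were run, and how cells were filtered, is not given in the sources used here. The header of the table lacks a name for the column of cells, so values lie 1 field to the right of their gene names, and the table was read with that shift. Cell names end in N1 to N3 and F1 to F3, while the labels say control and BLM; N was taken as control because the cells of each letter add up to the numbers the study gives for its groups. The labels number the 3 samples of a group without saying that each is a separate animal; they are called rats here, and p-values measure the spread between these samples.

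For clustering, each cell was scaled to a total of 10000 and put on a log scale. The 2000 most variable genes, without the members and the pathway lists, gave 30 principal components, 15 neighbours and Leiden clusters at resolution 1.0 (scanpy 1.11.5). A cluster took the name of the marker list with the highest mean log2 fold against the other clusters, if that mean was at least 1 and at least 3 markers were up. Stromal cells and ECs were clustered again on 20 components at resolution 0.5, and subclusters with leukocyte markers were left out, a choice made after the data were seen. Sums of UMIs over the cells of 1 class in 1 rat, with at least 10 cells, were tested with edgeR 4.0.16 (filterByExpr, TMM, quasi-likelihood) at an adjusted p of 0.05 over all genes of a comparison. Kinds of a cell were compared with the rat as a block. Libraries of 3860028 to 16598959 UMIs set the precision of the sums. Errors are the SE of the fit or the SD over rats.

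Members and lists were chosen with earlier results of these data known. All 5 members are named throughout, with up to 4 genes of a list per comparison by size of change among those past the threshold and the 5 genes most like each member. The lists hold 75 genes, of which 66 were in the table; Elmo2, Dock2, Vkorc1l1, Serpina5, Timd4, Adgrb1, Cd36 and Socs3 were among those not analysed here. Some items of the lists are not reported here. The edgeR fit was checked on simulated counts with known changes. Results were recomputed with DESeq2 1.42.0, RLE factors or no filter, the replicate number as a block, each rat left out, BLM rats only, other resolutions (0.5 and 2), the pathway genes kept in the clustering, doublets removed, cells of at least 500 UMIs, thinning to 300 or 1000 UMIs, and, added after the data were seen, the leukocyte-bearing subclusters kept and neutrophils without macrophage marker UMIs.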

Additional observations from a re-analysis of the deposited data

Results flagged for a closer look

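The change of 3 members under BLM differed between cell classes by a test of the difference itself. These interactions were chosen after the data were seen, with the rat as a block in edgeR. The log2 fold change of Gas6 was higher by 2.29 (SE 0.51, adjusted p = 0.00221) in fibroblasts, where it was 1.55, than in alveolar type 2 cells, where it was -0.80. In that interaction 1.02% of 6642 genes passed. Only control replicates 2 and 3 and BLM-treated replicates 2 and 3 held at least 10 cells of both classes. Without control replicate 3, which left 1 such control rat, the value was 2.17 and is given without a call. The fibroblasts of the groups were of different kinds, with 7 matrix fibroblasts in control and 794 in BLM-treated lungs, and in alveolar fibroblasts, present in both, Gas6 overlapped (423 and 216 CPM in control replicates 2 and 3, and 63.3, 173 and 792 CPM in BLM-treated replicates 1 to 3).

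The log2 fold change of Axl was higher by 1.31 (SE 0.28, adjusted p = 0.00079) in the neutrophil class, where it was 1.46, than in alveolar macrophages, where it was 0.10. That of Mertk was higher by 1.71 (SE 0.47, adjusted p = 0.012), with 2.20 in the neutrophil class and 0.35 in alveolar macrophages. In that interaction 7.15% of 8299 genes passed. The Mertk call was lost with DESeq2 (1.71, adjusted p = 0.0567) and without control replicate 1 (1.53, adjusted p = 0.0692) or BLM-treated replicate 1 (1.51, adjusted p = 0.0648), and the difference was 2.73 without control replicate 3. The levels of macrophage markers in the neutrophil class are given with its values in the report.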

How the results depend on the processing

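Within classes 3 pairs of member and class passed, and 6 passed without the filter. Between macrophage kinds 8 passed, and 3 at resolution 0.5, where Spp1 and C1q macrophages form 1 class and 1 contrast is left. Between EC kinds 0 passed, 1 at resolution 0.5, at resolution 2 and without the filter, 2 with BLM rats only, and 0 to 2 with each rat left out (2 without control replicate 3, 1 without BLM replicate 2). In the interaction of alveolar and C1q macrophages 0 passed, 2 at resolution 0.5, and 0 to 1 with each rat left out (1 without control replicate 2). Apart from the merging of kinds and the number of rats and genes tested, the cause was not tested.

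Directions turned for values near 0. Over all cells Gas6 (0.18) spanned -0.09 to 0.46 with each rat left out, being -0.03 without control replicate 3 and -0.09 without BLM replicate 3, and Mertk (0.01) spanned -0.20 to 0.28, being -0.20, -0.03 and -0.03 without control replicate 2, control replicate 3 and BLM replicate 2. Axl in alveolar macrophages (0.10) spanned -0.02, without BLM replicate 1, to 0.20. Gas6 in C1q macrophages (0.06) was -0.58 at resolution 0.5 and spanned -0.05 to 0.23 with each rat left out, being -0.01, -0.01 and -0.05 without control replicate 2, BLM replicate 2 and BLM replicate 3. The share of alveolar macrophages with an Axl UMI differed by -0.36 percentage points at 300 UMIs.

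Same-numbered rats had r of 0.102, -0.0587 and -0.127, near the -0.117 to 0.155 of differently numbered rats. These values cannot show whether same-numbered samples were handled together. With the replicate block (number as block) 0 members passed over all cells and 3 within classes: Gas6 in fibroblasts passed (1.57, adjusted p = 0.0119) and Axl in mesothelial cells was lost (2.69, adjusted p = 0.0566). Depth limits Tyro3 and the stromal and EC classes of control rats, which held few cells.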

Other observations

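Over all cells, where no member differed, 61 of the pathway genes were tested, and 15 were higher and 6 lower in BLM-treated lungs, beside 17.4% of all genes called. Of 7 tested partners of protein S in coagulation, 3 were higher and 1 lower (list median 0.46 against -0.01 over all genes). Procr, the endothelial protein C receptor, rose from 23.6, 39.6 and 39.0 CPM in control rats to 146, 186 and 163 CPM in BLM-treated rats (log2 fold change 2.23, SE 0.22, adjusted p = 0.00156), and Thbd, or thrombomodulin, rose by 2.10 (SE 0.26, adjusted p = 0.00249). C4bpa, a chain of the C4b-binding protein that protein S binds in plasma, fell (-1.58, SE 0.20, adjusted p = 0.00276). Of 11 engulfment genes 3 were higher and 0 lower, led by the adaptor Gulp1 (2.41, SE 0.39, adjusted p = 0.00689). Of 7 genes of phosphatidylserine exposure none passed. Adam17, which stood at 167 to 204 CPM in control and 116 to 120 CPM in BLM-treated rats, fell (-0.73, SE 0.14, adjusted p = 0.0125). Changes over all cells hold both the mix of cells and the level in each.

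In ECs 35 pathway genes were tested, and 1 was higher and 4 lower, beside 8.48% of all genes called. Tfpi, the inhibitor of tissue factor for which protein S is a cofactor, fell from 303, 475 and 327 CPM in control rats to 99.2, 76.6 and 97.9 CPM in BLM-treated rats (log2 fold change -1.90, SE 0.24, adjusted p = 1.15e-05). Of the control ECs 140 of 207 lay in a subcluster with 1 BLM-treated cell, so group and EC subcluster cannot be told apart in these values. Ifnar1, a chain of the type I interferon receptor, which TAM receptors use in their signalling, was lower (-0.99, SE 0.26, adjusted p = 0.0171), although its groups overlapped. In the neutrophil class, whose macrophage markers are given in the report, 4 of 27 tested pathway genes were higher and 1 lower, beside 18.2% of all genes called. Higher were, among others, Thbd (1.97, SE 0.31, adjusted p = 0.00157), Pparg (1.68, SE 0.39, adjusted p = 0.012) and Calu (1.63, SE 0.44, adjusted p = 0.0202), with F5, or coagulation factor V, lower (-1.51, SE 0.40, adjusted p = 0.0201).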
